A study of Drosophila melanogaster with 14 samples.

Results

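The genes described here were 119 genes, read by 121 probe sets. On these probe sets the signal in RNA pulled down from the outer photoreceptors was far below that in whole heads of Drosophila melanogaster. For 19 of the genes further probe sets lay outside the choice, and some of these were not lower than in whole heads. The genes were chosen by their measured values. Each array was scaled to the same trimmed mean and values were taken as log2(signal + 32). A probe set of a single gene was kept when the mean of the immunoprecipitates was at least 2 below the mean of both whole-head groups and the head groups lay within 1 of each other. A difference of 2 on this scale is 4-fold, and the added 32 understates the change of low signals. Of 12442 single-gene probe sets for 10843 genes, 135 (1.09%) lay inside these limits, and 14 of those, from 13 genes, were set aside by name. All 3 contrasts between the groups entered the choice, so the members' differences are given as a description, with no test.

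RNA was measured on 14 single-colour Affymetrix arrays in 3 groups. CS heads were 6 samples of whole heads from the wild-type strain Canton-S. Rh1 heads were 4 whole-head samples of flies with a transgene for FLAG-tagged poly(A)-binding protein under Rh1-GAL4, which drives expression in photoreceptors R1 to R6, the outer ones of each eye unit. IP stands for 4 anti-FLAG immunoprecipitates for which the labels give the genotype Rh1-GAL4/P{UAS-dPABP-FLAG} and whose source is given as photoreceptor cells R1-R6. The labels of Rh1 heads spelled the transgene both P{UAS-dPABP-FLAG} and P{UAS-hPABP-FLAG}, which was not settled here. Rh1 heads and IP therefore shared the driver and a tagged transgene, and CS heads carried neither. The labels give neither the age nor the sex of the flies, pool about 100 heads in each whole-head sample and about 200 in each immunoprecipitate, and do not say whether replicates came from separate cohorts. Tagged protein should be made only where the driver is active, which limits IP as a sample of photoreceptor RNA, but where it was made was not measured here. The 14 arrays include no immunoprecipitate from flies without the tagged protein. RNA carried along without that protein therefore cannot be told apart from RNA bound to it. Before precipitation heads were kept in 1% formaldehyde for 30 min, then broken up and sonicated, whereas no fixation is given for whole heads, so that fixation, sonication and binding cannot be told apart in either comparison with IP.

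Messenger RNA ends in a poly(A) tail to which this protein binds. When the protein carries a tag in 1 cell type, the transcripts of that cell type can be recovered from a mixed tissue, and transcripts made in other cells should be left behind. A fly head holds, besides the retina, the brain and optic lobes, glia, the muscles that move the mouthparts and antennae, a layer of fat body around the brain, blood cells, antennae with their support cells, and an epidermis that secretes cuticle. The fat body of an adult insect stores fat and glycogen, sends sugar, lipid carriers and yolk proteins into the blood, and detoxifies foreign compounds.

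Marker genes of these cell types gave the setting. The summed signal of 12 photoreceptor markers was 56048 to 61474 in CS heads, 20423 to 21188 in Rh1 heads and 39551 to 66369 in IP. The marker lists overlap the choice, since many of their genes are members or are among the genes that the rule sets aside by name, so sums over them partly repeat the values that chose the members. This holds for 7 of 8 muscle markers and 5 of 6 fat body markers. With this overlap, summed signals in IP were below both head groups for the 8 muscle markers (5899 to 11531, against 35366 to 55268 in CS heads and 45788 to 50220 in Rh1 heads) and for the 6 fat body markers (11954 to 24957, against 105723 to 120767 and 90660 to 100502). The markers left, Act88F of muscle and Yp3 of fat body, had 66.5 to 83.3 and 2433.6 to 9094.8 in IP, also below every head array. Over the 3 markers of other neurons and the 4 of hemocytes that are neither members nor set aside, the sums were 1060.3 to 1904 and 774 to 1334 in IP, 2173 to 3057 and 1991 to 2371 in CS heads, and 2780.0 to 3331 and 2182 to 2285 in Rh1 heads. Glial markers were divided. Over 4 of them the sum was 1619 to 2756 in IP, which overlapped the 2361 to 2926 of CS heads and the 2718 to 3379 of Rh1 heads, and IP was the lowest group for 2 of the 4. Gli, a gene of glial septate junctions, rose in IP by 1.17 against Rh1 heads and 1.83 against CS heads (limma, adjusted p = 0.0059 and 2.78e-05), and repo, a glial transcription factor gene, had 0.07 and 0.24 (adjusted p = 0.805 and 0.0867). Of the 2 antennal markers left, lush was lowest in IP and Orco was lowest in Rh1 heads. No marker was at 0 in any group, and the part of cell mixture in the members' values was not tested. In whole tissue, fewer cells of a type and less RNA per cell cannot be told apart.

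The immunoprecipitates differed from the heads and among themselves in a measure of RNA quality. The ratio of the 5′ to the 3′ control probe set of eIF-4a, a translation factor, was 0.531, 0.0284, 0.209 and 0.0432 in IP replicates 1 to 4, against 0.604 to 0.678 in Rh1 heads and 0.444 to 0.593 in CS heads. For actin the ratio was 0.135, 0.02, 0.0679 and 0.0167 in IP against 0.317 to 0.513 over all heads, and for GAPDH, a glycolytic enzyme, it was 0.202, 0.0248, 0.169 and 0.0093 against 0.291 to 0.541. On both of these all 4 IP arrays were below every head array, replicates 1 and 3 included, and on all 3 controls replicates 2 and 4 were the lowest. The ratio therefore moved with the comparison of IP and heads as a whole, and its part in the members' values was not tested. Without replicates 2 and 4 the members' median log2 difference was -2.48 against Rh1 heads and -2.50 against CS heads, compared with -2.49 and -2.51 on all 4 arrays. Without these replicates 100 of the 121 probe sets were at least 2 below both head groups and 120 were at least 1 below both.

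The members were mostly among the strongest signals of the head. Their median signal was 1649 in CS heads, 1817 in Rh1 heads and 267 in IP. By rank among all probe sets without controls, the median member stood at percentile 95.5 in CS heads, 95.9 in Rh1 heads and 61.2 in IP. In CS heads 91 of 121 were in the top 10%. In IP 23 were still in the top 10%, and 41 were below the median. Over all single-gene probe sets the median differences were 0.05 for IP minus Rh1 heads and 0.00 for IP minus CS heads, so the members lay far from a centre near 0. They ranged from -4.40 to -2.01 against Rh1 heads and from -3.94 to -2.01 against CS heads. In 27 the difference from Rh1 heads was 3 or more, in 30 that from CS heads, and in 18 both.

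**Figure D1:**
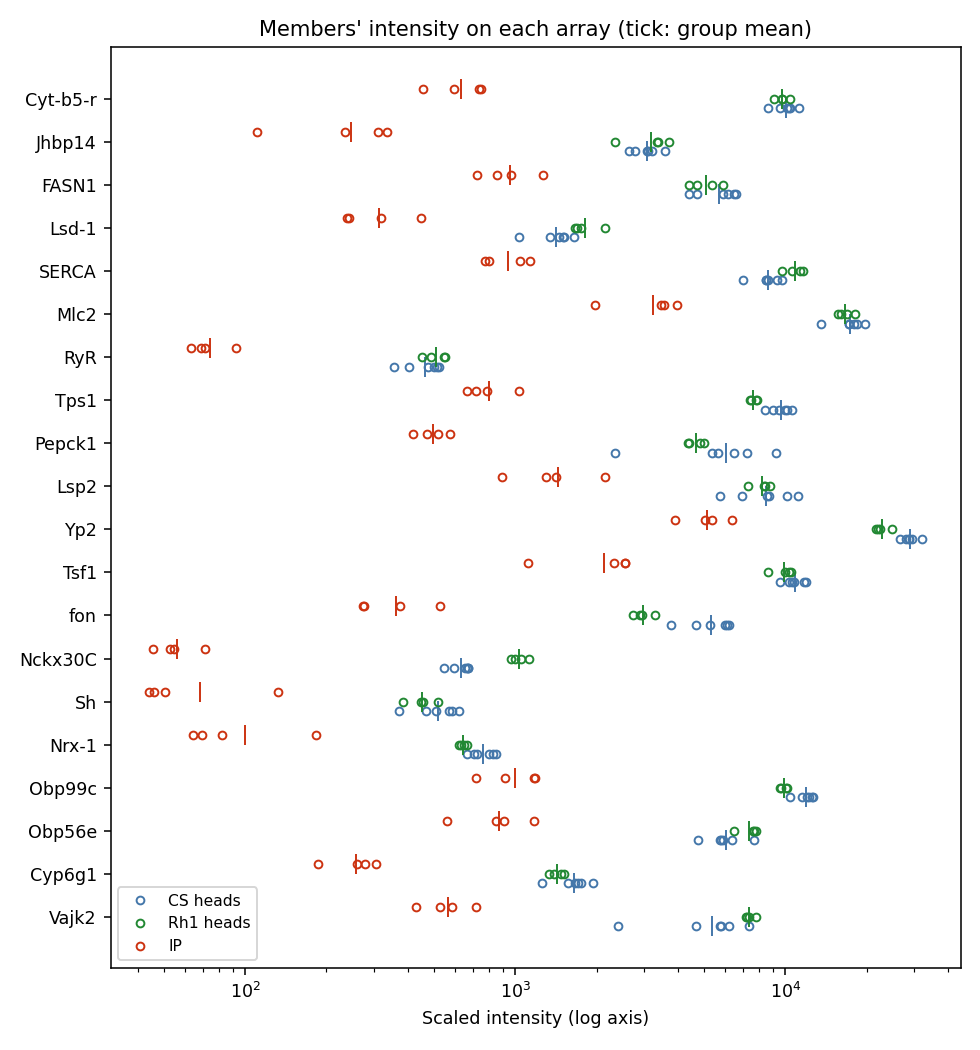
Scaled intensity (log axis) of 20 members on every array, with open circles for single arrays of CS heads (blue), Rh1 heads (green) and IP (red) and a tick at each group mean. The IP circles lie left of all head circles for every gene shown, from Sh with a lowest signal of 44.2 to Yp2 with a highest of 6321.

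In all 121 members every IP array was below every head array. Among all 12442 single-gene probe sets this held for 2046, or 16.4%, and since the same arrays chose the members nothing is read from the difference between these shares. The strength of the head signal set which genes could enter. When single-gene probe sets were ordered by head level in 10 equal parts, none of the lower 5 parts held a probe set inside the limits. The 6th to 9th parts held 4, 1, 6 and 16, and the brightest part held 108, which was 8.67% of it. The brightest part as a whole had a median of -0.52 for IP minus Rh1 heads. A gene with a very weak head signal cannot lie 2 below on this scale.

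**Figure D2:**
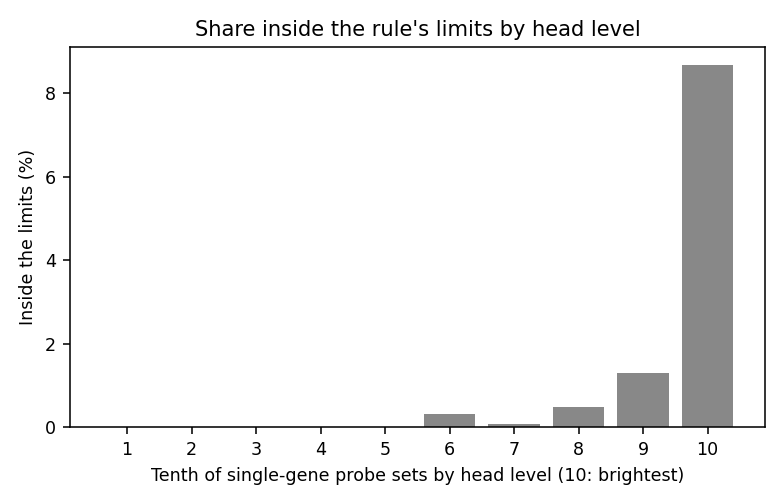
Percent of single-gene probe sets inside the limits of the rule (vertical axis) in 10 equal parts of the probe sets by mean head level (horizontal axis, 10 is the brightest). Bars are absent in parts 1 to 5, and the brightest part stands at 8.67% against 1.29% in the next.

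The values at the edge of the rule show that it cut through a continuum. Just inside were Cat, which encodes catalase, at -2.01 and -2.08 against Rh1 heads and CS heads, LManII, a lysosomal mannosidase, at -2.21 and -2.01, and CG14762, kmr and CG1468, whose smaller differences were -2.01, -2.02 and -2.02. Just outside were PMCA, the plasma membrane calcium pump, at -2.53 and -1.99, and Yp3, a yolk protein gene, at -1.97 and -2.06. CtBP, a transcriptional corepressor, was outside with -1.98 against Rh1 heads, as were CG11368 and CG14687 with -1.99 and -1.95 against CS heads. The limit on the head groups kept out 1 probe set that was low enough in IP, that of fit, a fat body gene with -1.29 for Rh1 minus CS heads, which the rule also sets aside by name. Among the members CG8329 (0.97), CG34166 (-0.94) and CG9512 (0.93) came close to it in Rh1 minus CS heads.

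For 78 members a role is given below from general knowledge, and 43, of which 37 carry only a CG symbol, are given none. Values given by role are those of the member probe set. Further probe sets of the same genes, some with differences near 0, are described later. The role groups were drawn up after the values were seen, so their medians describe and are not compared by a test. Counts within them of probe sets higher or lower in Rh1 heads have no matching share over all probe sets. They too are descriptions and are not read as a trait of a group. Counts of other genes of the same pathways come from lists made with earlier results of these data known and use limma, adjusted by Benjamini-Hochberg over 9776 probe sets. Over these probe sets 25.6% were lower and 21.8% higher in IP than in Rh1 heads, 34.4% were lower and 26.5% higher than in CS heads, and between the head groups 24.4% were higher and 29.7% lower in Rh1 heads. The other genes of a list are its tested genes that are not members. They include genes inside the limits that the rule set aside by name. Examples are Prm, up, Mf, Mlc1 and Act87E of the sarcomere, Yp1 and fit of the fat body, and Cyt-c1 of the respiratory chain. Counts and medians of such lists therefore partly repeat values that the rule used. Genes outside the limits missed at least 1 limit by construction. A list median nearer 0 than the members' is therefore not read as a result. "Fell" and "rose" are used here for genes that passed this test at an adjusted p under 0.05.

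**Figure D3:**
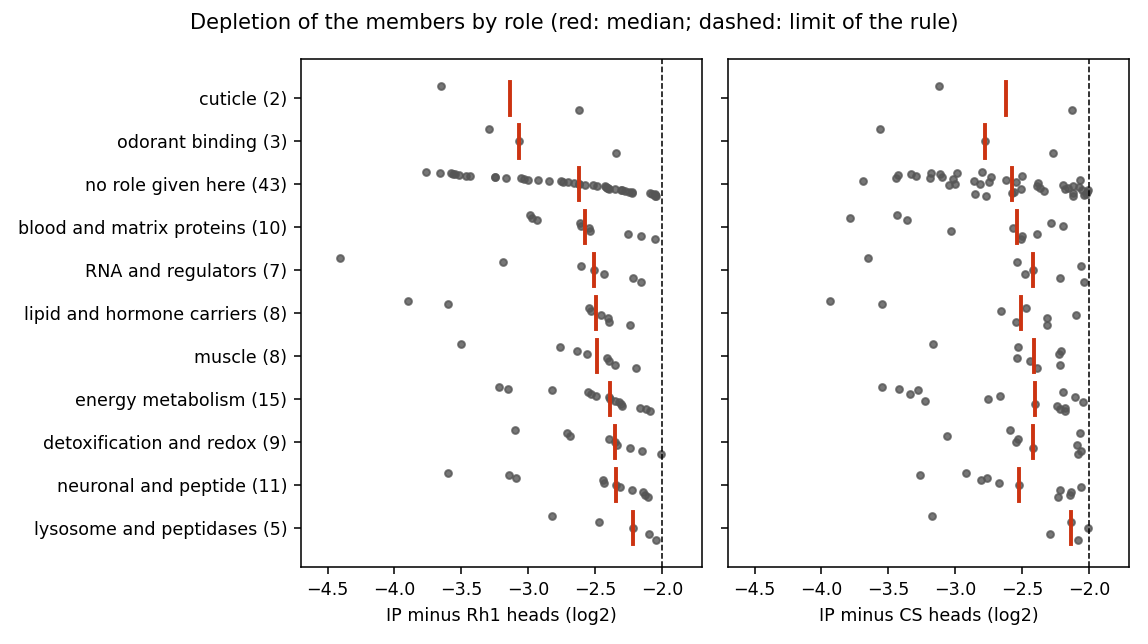
Each point is a member probe set, placed by its log2 difference of IP from Rh1 heads (left panel) or CS heads (right panel) within its role group, with the number of probe sets in parentheses, a red bar at the group median and a dashed line at the limit of 2. Group medians against Rh1 heads run from -3.14 for 2 cuticle genes to -2.22 for 5 genes of lysosomes and peptidases, and the 3 genes of odorant binding proteins have a median of -3.07.

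Genes of fat storage, lipid synthesis and lipid or hormone carriers made up 8 members, with median differences of -2.49 against Rh1 heads and -2.51 against CS heads. The strongest was Cyt-b5-r, which encodes a membrane protein related to cytochrome b5. Its signal was 594, 746, 735 and 456 on IP arrays 1 to 4 and 9699, 9110.1, 10436 and 9735 on the Rh1 head arrays, and it ran from 8616 to 11198 (median 10203) in CS heads. The head groups overlapped, and every IP signal was far below them. The log2 difference was -3.90 (SE 0.16) against Rh1 heads and -3.94 (SE 0.17) against CS heads, where SE is the standard error of a difference of group means from 4 IP, 4 Rh1 head and 6 CS head arrays.

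Jhbp14 belongs to a family of secreted proteins that bind juvenile hormone. It had 309, 234, 335 and 111 in IP, 3702, 3369.9, 2346 and 3357 in Rh1 heads and 2628 to 3585 (median 3090.0) in CS heads, a difference of -3.60 (SE 0.34) against Rh1 heads and -3.55 (SE 0.32) against CS heads. IP replicate 4 was the lowest. Jhbp3, of the same family and named after its values were seen, had -2.54 and -2.47 against Rh1 heads and CS heads. FASN1 encodes the enzyme that builds fatty acids. Its signal was 725, 964, 859.6 and 1268 in IP, 4723, 4410.1, 5859 and 5344 in Rh1 heads and 4407 to 6571 (median 6007) in CS heads, a difference of -2.40 (SE 0.19) against Rh1 heads and -2.55 (SE 0.19) against CS heads. Here replicate 4 was the highest of the IP arrays, so the order of the immunoprecipitates was not the same from gene to gene. Lsd-1 and Lsd-2 encode the perilipins that coat lipid droplets, and their differences were -2.46 and -2.10 and -2.53 and -2.66. AcCoAS makes acetyl-CoA from acetate and Npc2g is of the Niemann-Pick type C2 family of sterol-binding proteins, and both, named after their values were seen, had -2.24 and -2.32 and -2.40 and -2.31. Outside the members, 14 of the other 24 tested genes of lipid synthesis, storage and oxidation fell in IP against Rh1 heads and 2 rose, with a median of -0.60. Against CS heads the counts were also 14 and 2, and between the head groups 5 were higher and 8 lower in Rh1 heads.

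Muscle genes contributed 8 members, with medians of -2.49 and -2.41. SERCA, the pump that returns calcium to the sarcoplasmic reticulum after contraction, was the strongest. Its signal was 1041, 774, 1131 and 802 in IP, 10614, 9689.6, 11660.3 and 11359 in Rh1 heads and 6960.4 to 9717 (median 8569.9) in CS heads. Rh1 heads were slightly above CS heads with overlap, and no IP array was above 1131, giving -3.50 (SE 0.14) against Rh1 heads and -3.17 (SE 0.15) against CS heads. RyR, the ryanodine receptor through which that calcium is released, was a weaker signal on the same side. It had 92.7, 70.8, 63.2 and 68.9 in IP, 551, 450.3, 488 and 544 in Rh1 heads and 356 to 524 (median 486) in CS heads, a difference of -2.35 (SE 0.11) against Rh1 heads and -2.22 (SE 0.12) against CS heads. Mlc2 encodes the regulatory light chain of myosin and was among the 8 brightest members. Its signal was 3463, 3569, 3984 and 1971 in IP, 15693, 16008, 18087 and 16927 in Rh1 heads and 13531 to 19643 (median 17529) in CS heads, a difference of -2.40 (SE 0.23) against Rh1 heads and -2.44 (SE 0.24) against CS heads. Even after this the IP mean stood at percentile 97.9 of all probe sets, so a gene that is lower by this much was still one of the bright signals of the precipitate. Replicate 4 was lower than the other IP arrays.

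The other muscle members were Mp20, a calponin-like protein of some muscles (-2.76 and -2.53, named after its values were seen), Zasp52 of the Z-disc (-2.64 and -2.21), the LIM-domain protein gene Lmpt (-2.56 and -2.23), tropomyosin 2 or Tm2 (-2.41 and -2.54) and rost, a gene of myoblast fusion (-2.19 and -2.39, also named after its values were seen). Among the other 19 tested genes of the sarcomere 15 fell in IP against Rh1 heads and 1 rose, with a median of -1.42. Against CS heads 15 fell and 2 rose. All 4 other tested genes of muscle calcium handling and energy buffering fell against each head group.

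Enzymes and transporters of energy metabolism gave 15 member probe sets of 14 genes, with medians of -2.39 and -2.41. Tps1 makes trehalose, the main blood sugar of insects, from glucose in the fat body. Its signal was 664, 1036, 784 and 718 in IP, 7855, 7451, 7377 and 7767 in Rh1 heads and 8388 to 10582 (median 9747) in CS heads. All 4 Rh1 head arrays were below all CS head arrays, with a difference of -0.33 (SE 0.05), and IP lay far below both at -3.22 (SE 0.14) against Rh1 heads and -3.55 (SE 0.14) against CS heads. Tret1-1, which moves trehalose across membranes, had both of its probe sets among the members, at -2.82 and -3.28 and at -2.55 and -2.20. The first of these has a suffix that marks an incomplete set of unique probes, which makes its reading uncertain. Pepck1, of glucose synthesis from smaller molecules, was named after its values were seen. It had 575, 420.2, 473 and 519 in IP, 4377, 4844, 4382 and 5018 in Rh1 heads and 2339 to 9258 (median 6048) in CS heads, a difference of -3.15 (SE 0.10) against Rh1 heads and -3.42 (SE 0.29) against CS heads. CS heads spread widely for this gene and IP did not.

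Ald1 encodes aldolase of glycolysis and is the member on which the immunoprecipitates disagreed most. Its signal was 8736, 1517, 4059 and 844 in IP, 11426, 10683, 11743 and 12045 in Rh1 heads and 11668 to 13009 (median 12159) in CS heads. IP replicate 1 lay close to the heads and replicate 4 about an order of magnitude below. The mean difference was -2.12 (SE 0.74) against Rh1 heads and -2.22 (SE 0.74) against CS heads, and without IP replicates 2 and 4 it was -0.94 and -1.04, well short of the limit. blw, the alpha subunit of ATP synthase, had 4694, 3059.8, 3865 and 1254 in IP, 14047, 13512, 15731 and 14173 in Rh1 heads and 12071 to 14555 (median 13904) in CS heads. Its difference of -2.30 and -2.24 became -1.74 and -1.68 without IP replicates 2 and 4. Mitochondrial aconitase, mAcon1, an enzyme of the tricarboxylic acid cycle, had -2.17 and -2.18, and malic enzyme, Men, which makes pyruvate from malate, had -2.32 and -2.05.

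The other 7 members of this group were Sodh1, a sorbitol dehydrogenase (-2.35 and -3.23), Paics of purine synthesis (-2.53 and -3.33), Gs1, a glutamine synthetase (-2.31 and -2.40), and, named after their values were seen, the galactokinase Galk (-2.39 and -2.76), the amino acid transporter path (-2.50 and -2.66), Gbs-70E, a subunit that ties a phosphatase to glycogen (-2.40 and -2.10), and muc of the pyruvate dehydrogenase complex (-2.09 and -2.18). Of the 15 probe sets 11 were lower in Rh1 heads than in CS heads, with a median of -0.10 against -0.02 over all single-gene probe sets. The lowest were Sodh1 (-0.88 (SE 0.19)) and Paics (-0.80 (SE 0.07)), whose head groups did not overlap. In the lists, 8 of the other 13 tested genes of glycolysis and trehalose fell in IP against Rh1 heads and 1 rose, with a median of -0.90. Against CS heads 10 fell and none rose by limma, where 26.5% of all probe sets rose. For the other 12 tested genes of the tricarboxylic acid cycle 8 fell and 1 rose against each head group. The list of the mitochondrial respiratory chain had 59 tested genes and does not hold blw or any other member. It showed 20 falls and 5 rises against Rh1 heads, and 38 falls and 2 rises against CS heads. Between the head groups 42 of the 59 were lower in Rh1 heads and none higher, with a median of -0.25. The falls against CS heads therefore carry a difference between the heads. Over all tested probe sets 25.6% fell in IP against Rh1 heads and 34.4% against CS heads.

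Secreted proteins of blood and extracellular matrix made up 10 members, with medians of -2.58 and -2.54. Yp2 encodes a yolk protein that the fat body of females secretes. It was the brightest member, with 5024, 6321, 5348 and 3898 in IP, 22113, 21573, 24766 and 22479 in Rh1 heads and 26572 to 32173 (median 28775) in CS heads. All Rh1 head arrays were below all CS head arrays (-0.35 (SE 0.06)), and the IP arrays were lower still at -2.15 (SE 0.15) against Rh1 heads and -2.50 (SE 0.15) against CS heads. Lsp2, a storage protein of insect blood, had 892, 2148, 1299 and 1414 in IP, 7292, 8757, 8350.3 and 8399 in Rh1 heads and 5706 to 11113 (median 8604) in CS heads, a difference of -2.55 (SE 0.26) against Rh1 heads and -2.57 (SE 0.29) against CS heads. Both kinds of head overlapped here. fon is a gene of the blood clot. Its signal was 276, 374, 273 and 526 in IP, 2938, 3300.4, 2723 and 2904 in Rh1 heads and 3781 to 6191 (median 5617) in CS heads. The 3 groups formed steps without overlap, with -0.82 (SE 0.13) between the head groups and -2.97 (SE 0.21) against Rh1 heads and -3.79 (SE 0.24) against CS heads.

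Tsf1 encodes the iron carrier transferrin. It had 2326, 2554, 2554 and 1114 in IP, 10346, 8619, 10481 and 9942 in Rh1 heads and 9552 to 11957 (median 10684) in CS heads, a difference of -2.26 (SE 0.29) against Rh1 heads and -2.39 (SE 0.29) against CS heads, and replicate 4 stood below the other IP arrays. SPARC, a glycoprotein of basement membranes, had 591, 439, 542 and 388 in IP, 4058, 4367, 3612 and 3646 in Rh1 heads and 4921 to 5665 (median 5229) in CS heads. It was lower in Rh1 heads than in CS heads without overlap, and its differences were -2.93 (SE 0.15) against Rh1 heads and -3.36 (SE 0.14) against CS heads. The matrix protein genes Ppn (-2.61 and -2.28) and Glt (-2.54 and -3.03), the chitinase-like growth factor gene Idgf4 (-2.61 and -2.19) and the immune-induced peptide genes BomBc2 (-2.99 and -3.44) and BomT2 (-2.05 and -2.51) completed the group, of which Glt and the peptide genes were named after their values were seen. Of the 10, 8 were lower in Rh1 heads than in CS heads, with a median of -0.39 for Rh1 minus CS heads. The median was 0.01 over all members and -0.02 over all single-gene probe sets, and the count is a description only. Only Ppn and Idgf4 were higher in Rh1 heads. Among the other 15 tested genes of fat body storage and secretion 9 fell in IP against Rh1 heads and none rose by limma, where 21.8% of all probe sets rose, and 12 fell against CS heads. Between the head groups 7 of these 15 were lower in Rh1 heads. Of the other 14 tested genes of hemocytes and matrix 9 fell and 1 rose in IP against Rh1 heads.

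There were 11 members that were neuronal genes or genes for peptides, with medians of -2.34 against Rh1 heads and -2.52 against CS heads and weak signals in IP, with a median of 88.2. Nckx30C encodes a potassium-dependent sodium and calcium exchanger known from neurons and from the fly eye itself. Its signal was 54.4, 71.1, 53 and 45.8 in IP, 999, 963, 1052 and 1120.3 in Rh1 heads and 544 to 668 (median 657) in CS heads. It was higher in Rh1 heads than in CS heads without overlap (0.69 (SE 0.07)), and IP was lower than both at -3.60 (SE 0.10) against Rh1 heads and -2.92 (SE 0.10) against CS heads. A second probe set of the gene, outside the members, had -2.16 against Rh1 heads and -1.62 against CS heads. Sh is the Shaker potassium channel. The member probe set had 132, 45.8, 50.8 and 44.2 in IP, 456, 383, 446 and 519 in Rh1 heads and 373 to 619 (median 538) in CS heads, a difference of -2.34 (SE 0.28) against Rh1 heads and -2.52 (SE 0.28) against CS heads, with IP replicate 1 above the rest. Lst encodes limostatin, a peptide hormone that restrains insulin release. It had 107, 86.8, 113 and 87 in IP, 1206, 1065, 1141 and 1058 in Rh1 heads and 952 to 1645 (median 1185) in CS heads, a difference of -3.14 (SE 0.09) against Rh1 heads and -3.26 (SE 0.15) against CS heads, and was named after its values were seen.

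Nplp2, annotated as a neuropeptide-like precursor, was the brightest of the group. Its signal was 4097, 6168, 4816 and 4757 in IP, 21453, 19825, 22739.8 and 22417 in Rh1 heads and 20848 to 22346 (median 21857) in CS heads, a difference of -2.13 (SE 0.13) against Rh1 heads and -2.14 (SE 0.12) against CS heads, and the IP mean still stood at percentile 98.7. The peptide genes CCHa2 and Dh31 had -2.44 and -2.81 and -2.31 and -2.06. GluClalpha, a glutamate-gated chloride channel, had -2.10 and -2.23, and Sap47, of presynaptic terminals, had -2.14 and -2.13. The synaptic genes named after their values were seen were hig, of the synaptic cleft (-3.09 and -2.76), the adhesion protein gene Nrx-1 (-2.43 and -2.67) and the calcium sensor gene Frq1 (-2.23 and -2.22). For Sap47 the IP signals were 696, 148, 211 and 172, so that replicate 1 lay apart, and without replicates 2 and 4 its differences were -1.58 and -1.57.

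Of 31 other tested genes of transmitter systems 22 fell and 2 rose in IP against Rh1 heads, with a median of -0.53. Of 21 of synaptic vesicles and active zones 14 fell and none rose, with a median of -0.85, and 14 were higher in Rh1 heads than in CS heads against 2 lower. Of 26 of excitability channels 15 fell and 1 rose, with a median of -0.58, and of 26 neuropeptide genes 15 fell and none rose, with a median of -0.35. Of 19 other tested glial genes 11 fell and 2 rose, with a median of -0.58. Against CS heads the falls numbered 21, 15, 20, 16 and 13 in these 5 lists and the rises 3, 0, 2, 1 and 5. All of these calls are limma's. The lists were not matched for signal, and the brightest of the 10 parts by head level had a median of -0.52 against Rh1 heads. These medians are therefore not read as particular to neurons or glia.

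Odorant-binding protein genes, with 3 members, are expressed in support cells of antennal and gustatory sensilla and elsewhere in the head. Obp99c had 914, 1169, 1179 and 715 in IP, 9623, 10146, 10089.6 and 9556 in Rh1 heads and 10419.6 to 12660.2 (median 12133) in CS heads, a difference of -3.29 (SE 0.17) against Rh1 heads and -3.57 (SE 0.17) against CS heads. Obp56e had 560.2, 1172, 912 and 848 in IP, 6473, 7636, 7758 and 7562 in Rh1 heads and 4764 to 7679 (median 5826) in CS heads, a difference of -3.07 (SE 0.22) against Rh1 heads and -2.77 (SE 0.23) against CS heads. In both, the IP arrays lay far below the heads, with replicate 4 the lowest for Obp99c and replicate 1 for Obp56e. Obp56g, named after its values were seen, had -2.34 and -2.27. Of the other 20 tested genes of antenna and taste 11 fell and 1 rose against Rh1 heads, and 14 fell and 4 rose against CS heads.

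Detoxification and redox enzymes gave 9 members, with medians of -2.35 and -2.42. Cyp6d5, a cytochrome P450, had 481, 576, 635 and 448 in IP, 3706, 3772, 3500.0 and 3628 in Rh1 heads and 1922 to 2687 (median 2349.9) in CS heads. Its head groups did not overlap, with 0.64 (SE 0.07) for Rh1 minus CS heads, so the differences of IP were unequal at -2.71 (SE 0.11) against Rh1 heads and -2.07 (SE 0.13) against CS heads. Cyp4ac1, of the same superfamily, was the weakest member signal in IP. It had 21.1, 20.3, 24.4 and 24.4 in IP, 353, 357, 270.3 and 302 in Rh1 heads and 291 to 501 (median 449.8) in CS heads, a difference of -2.69 (SE 0.09) against Rh1 heads and -3.06 (SE 0.11) against CS heads, and at such signals the added 32 makes the fold smaller than the ratio of signals. Cyp313a1 had -3.10 and -2.59, the glutathione transferase gene GstE9 -2.39 and -2.53, and the extracellular superoxide dismutase gene Sod3 -2.34 and -2.09. Cyp6g1, known for insecticide resistance, Cyp12a4 and the microsomal glutathione transferase gene Mgstl, named after their values were seen, had -2.35 and -2.55, -2.24 and -2.42 and -2.15 and -2.06. The list as a whole was mixed. Of its other 51 tested genes 17 fell and 9 rose in IP against Rh1 heads, with a median of -0.20, and 23 fell and 14 rose against CS heads.

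The 2 cuticle members were higher in Rh1 heads than in CS heads. Vajk2, of a family of cuticle proteins, had 717, 528, 583 and 429 in IP, 7777, 7178, 7184 and 7329.8 in Rh1 heads and 2411 to 7334 (median 5744) in CS heads, a difference of -3.66 (SE 0.15) against Rh1 heads and -3.12 (SE 0.27) against CS heads. CS head replicate 4 was the lowest of its group. Cpr100A, with a chitin-binding domain, had 1215, 944, 1054 and 632 in IP, 6056, 5887, 6416 and 5415 in Rh1 heads and 2722 to 4979.9 (median 4512) in CS heads, a difference of -2.62 (SE 0.20) against Rh1 heads and -2.13 (SE 0.23) against CS heads, and the same CS head array was again the lowest. Of the other 34 tested cuticle and chitin genes 13 fell and 5 rose against Rh1 heads and 16 fell and 6 rose against CS heads.

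Lysosomal proteins and peptidases made up 5 members, with medians of -2.22 and -2.14. They were teq, a large serine protease (-2.82 and -3.18), LManII, Ance-4 of the angiotensin-converting enzyme family (-2.04 and -2.08), and the lysosomal genes Lamp1 (-2.47 and -2.14) and CtsK1 (-2.09 and -2.29). Ance-4, Lamp1 and CtsK1 were named after their values were seen. Lamp1 is a membrane protein of lysosomes, and it had 1203, 382, 913 and 363 in IP, 3737, 3652, 3712 and 3411 in Rh1 heads and 2736 to 3086 (median 2862) in CS heads. IP replicates 1 and 3 were above replicates 2 and 4 by more than their own gap. The list of serine protease and serpin genes does not hold teq, and its 1 member is CG8329, described below among the members without a role. Of its 33 other tested genes 13 fell and 4 rose against Rh1 heads, with a median of -0.08. Of 19 other digestive and sugar genes 6 fell and 4 rose, with a median of -0.04. Against CS heads the counts were 20 and 2, and 7 and 2.

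Genes of RNA or regulation, 6 in number, gave 7 member probe sets, with medians of -2.51 and -2.42. The lowest value of all members belonged to lncRNA:CR42862, a long noncoding RNA gene with 2 member probe sets. The stronger one had 135, 103.7, 129 and 133 in IP, 3544, 2429.6, 3426 and 3939 in Rh1 heads and 1531 to 2605 (median 1968) in CS heads, a difference of -4.40 (SE 0.16) against Rh1 heads and -3.65 (SE 0.13) against CS heads. The other had 645, 1151, 1045 and 939 in IP, 5106, 4141, 5669 and 5757 in Rh1 heads and 4989 to 5756 (median 5271) in CS heads, a difference of -2.43 (SE 0.21) against Rh1 heads and -2.48 (SE 0.18) against CS heads. Both readings put IP below every head array, with unequal sizes. gw encodes a protein of microRNA silencing and was named after its values were seen. Its member probe set had 90.03, 62.6, 34.9 and 65.5 in IP, 840.1, 783, 732 and 916 in Rh1 heads and 409.6 to 642 (median 507) in CS heads, a difference of -3.18 (SE 0.19) against Rh1 heads and -2.54 (SE 0.20) against CS heads. The others were spen, a nuclear RNA-binding protein gene (-2.15 and -2.03), the kinase genes Lk6 (-2.51 and -2.42) and Hipk (-2.21 and -2.22), and lost (-2.60 and -2.06), of which spen and Hipk were named after their values were seen.

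The 43 members without a role here had medians of -2.62 and -2.57. In Rh1 heads 28 of them were higher than in CS heads, with a median of 0.10 against -0.02 over all single-gene probe sets. They include strong head signals. CG17108 had 2444, 4015, 2721 and 2252 in IP, 17216, 15930.4, 18175 and 18054 in Rh1 heads and 17895 to 20558 (median 20238) in CS heads, a difference of -2.62 (SE 0.19) against Rh1 heads and -2.82 (SE 0.19) against CS heads. CG2233 had 853, 1142, 1252 and 1239 in IP, 12751, 12047, 13933 and 13547 in Rh1 heads and 11133 to 13006 (median 12461) in CS heads, a difference of -3.52 (SE 0.13) against Rh1 heads and -3.43 (SE 0.13) against CS heads. Both kinds of head overlapped in these, or nearly so, and IP lay below them by a wide gap. CG8329 was in the list of serine protease and serpin genes, though it was put in no role group. It had 433, 689, 660.1 and 352 in IP, 7302, 7388, 7318 and 7633 in Rh1 heads and 3071 to 4203 (median 4056) in CS heads, a difference of -3.77 (SE 0.22) against Rh1 heads and -2.80 (SE 0.24) against CS heads. Its Rh1 heads were well above its CS heads without overlap. CG9512 had the steadiest precipitates, with 428, 435, 434 and 446 in IP, 5216, 5061, 4814 and 5037 in Rh1 heads and 2314 to 2867 (median 2675) in CS heads, a difference of -3.44 (SE 0.03) against Rh1 heads and -2.50 (SE 0.05) against CS heads. CG34166 went the other way between the heads. It had 156, 357, 215 and 663 in IP, 2487, 2598, 1903 and 2005 in Rh1 heads and 3564 to 6263 (median 3897) in CS heads, a difference of -2.75 (SE 0.43) against Rh1 heads and -3.69 (SE 0.43) against CS heads. Other genes without a role and with a difference from Rh1 heads beyond 3 were CG2269 (-3.66), CG7781 (-3.58), CG3088 (-3.56), CG8736 (-3.55) and CG6067 (-3.17), among the genes named by rule.

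Between the head groups the members were split. The rule limited this difference to 1, so its size is no result. In Rh1 heads 63 of the probe sets were higher and 58 lower than in CS heads, with a median of 0.01 and a range from -0.94 to 0.97, against a median of -0.02 over all single-gene probe sets. The head groups did not overlap for 38 of the 121, of which 19 were higher and 19 lower in Rh1 heads. Over all single-gene probe sets 34.4% did not overlap, and the members' count is read as no more than that. The lowest in Rh1 heads were CG34166, Sodh1, fon, Elal (-0.80 (SE 0.08)) and Paics, and the highest were CG8329, CG9512, CG9676 (0.86 (SE 0.07)), lncRNA:CR42862 and Nckx30C.

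Some genes had further probe sets. Of the member genes, 19 had 30 further single-gene probe sets outside the members, and for these the median of IP minus Rh1 heads was -0.33. Of the 30, 3 were at least 2 below Rh1 heads, 11 at least 1 below, 18 within 1, and 1 was more than 1 above. A further probe set that met the limits would itself be a member, as for Tret1-1 and lncRNA:CR42862, so these counts leave such cases out. Among the 22 with a signal of at least 200 in both head groups 3 were at least 2 below Rh1 heads, 11 at least 1 below and 11 were not. Over all 5726 single-gene probe sets this bright, 3.35% were at least 2 below Rh1 heads and 13.1% at least 1 below.

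gw is a clear case. Its second probe set had a mean of 1228 in IP, 1439.9 in Rh1 heads and 1134 in CS heads, a difference of -0.26 against Rh1 heads where the member probe set had -3.18. Lk6, a kinase that acts on a translation initiation factor, had 4328, 2576, 3217 and 1214 on the IP arrays and 2791, 2352, 3036 and 3294 on the Rh1 head arrays by its second probe set, which is -0.14 against -2.51. The groups overlapped on it. lost had -0.06 on its second probe set against -2.60, Men 0.37 against -2.32, Mnr 0.08 against -2.41 and Hipk -0.39 against -2.21. Lmpt had -0.23, -1.77 and 0.86 on 3 further probe sets, all brighter in heads than the member probe set with -2.56, and on the last of them IP, with a mean of 645, was above both head groups. Sod3 had -0.95 and 0.19 against -2.34. The further probe sets of Ppn (-0.08) and kmr (0.08 and 0.30) had weak head signals. The 3 other probe sets of Sh had -0.70, -0.14 and -0.17, all with weak head signals. For teq 3 further probe sets had -1.80, -0.28 and 1.38, and the last of these, with means of 773 in IP, 275 in Rh1 heads and 1127 in CS heads, was higher in IP than in Rh1 heads.

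In other genes the readings pointed the same way. CG9297 had -2.08 on its second probe set against -3.03, CG10077 -1.97 against -3.47, CG31221 -1.81 against -2.22, and Mgstl -2.29 and -1.35 against -2.15. The 2 further probe sets of Vajk2 had -1.71 and -1.61, and those of Zasp52 had -0.98 and -1.12. Ppn, Vajk2 and Lk6 are members by probe sets whose suffix marks probes shared with other transcripts, and Tret1-1 and Mgstl by probe sets with an incomplete set of unique probes, so these 5 readings are uncertain. Where each probe set lies along its transcript was not analysed here, and the part of the 5′ to 3′ ratio in these disagreements was not tested. CG9297, CG10077 and CG31221 were named after their values were seen.

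**Figure D4:**
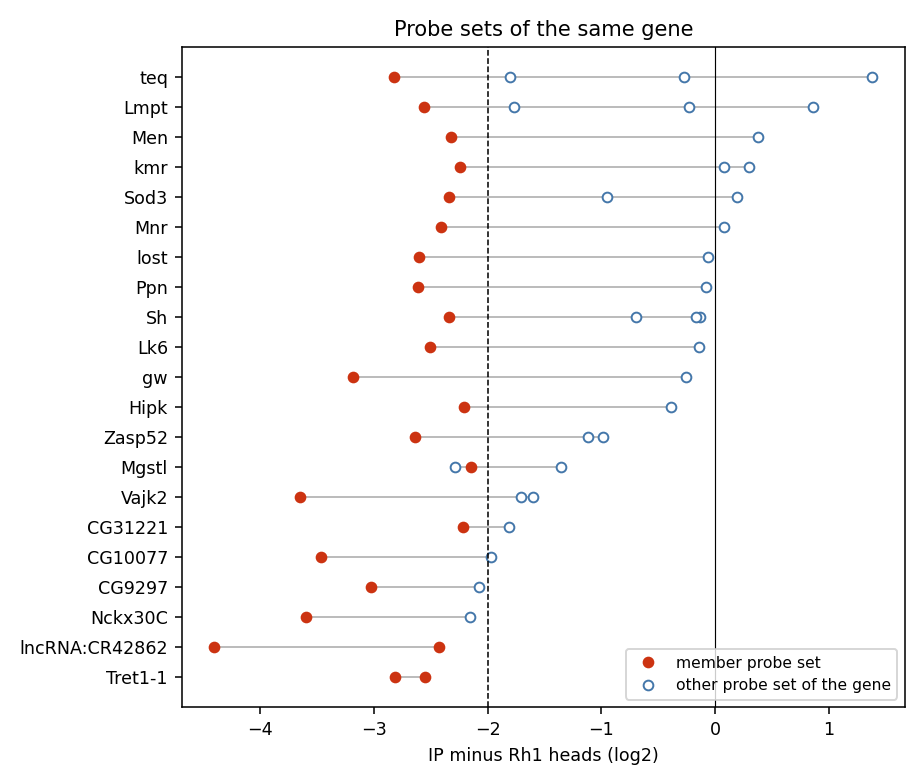
For each gene with more than 1 single-gene probe set, the log2 difference of IP from Rh1 heads on the member probe set (filled red) and on its other probe sets (open blue), with a dashed line at -2 and a solid line at 0. The genes at the top, from teq to Zasp52, have an open circle within 1 of 0 or above, and those at the bottom, from Mgstl to Tret1-1, lie low on every probe set.

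The 4 immunoprecipitates, taken singly, gave the members median differences from Rh1 heads of -2.53, -2.57, -2.49 and -2.66 for replicates 1 to 4. At least 2 below were 101, 110, 109 and 105 of the 121, and at least 1 below were 118, 121, 121 and 121. The members had a median SD among IP arrays of 0.298 on the log2 scale against 0.205 over all single-gene probe sets. In CS heads and Rh1 heads their SDs were also larger (0.156 against 0.0941 and 0.122 against 0.094). The reference was not matched for signal, and the members are brighter in heads than most probe sets, so these SDs are not a trait of the members alone. IP replicate 4 was the lowest IP array for 54 members and the highest for 34.

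**Figure D5:**
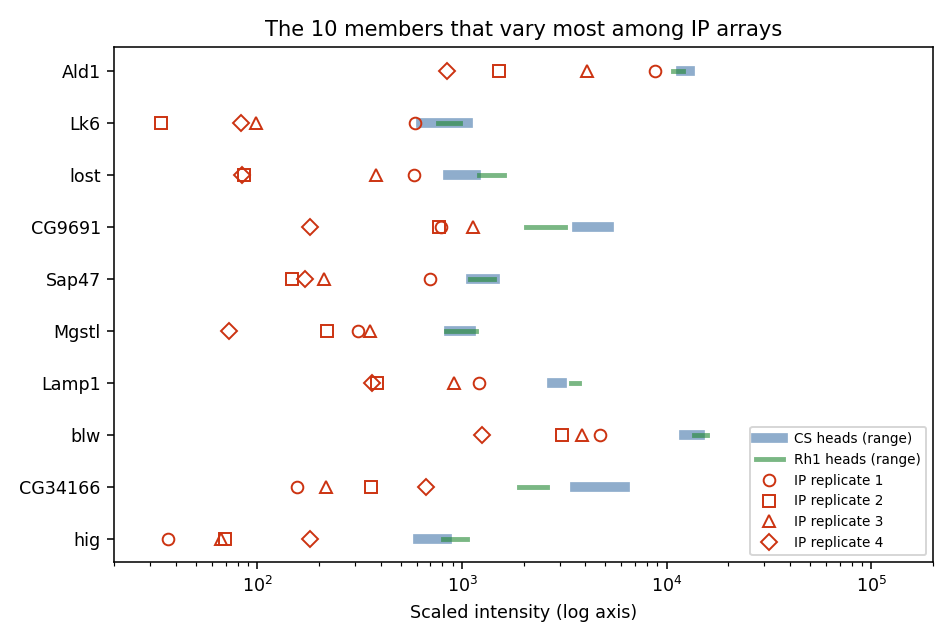
Scaled intensity (log axis) of the 10 members with the largest SD over the IP arrays, with a separate red symbol for each IP replicate and bars for the range of CS heads (blue) and Rh1 heads (green). For Ald1, Lk6, lost and Sap47 the circle of IP replicate 1 lies nearest to the heads, whereas for hig and CG34166 replicate 4 does.

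The order of the IP arrays was set beside the 5′ to 3′ ratio. In 41 members (33.9%) replicates 1 and 3, which had the higher ratios, were both above replicates 2 and 4, against 13.4% of all single-gene probe sets. The opposite order held for 24 members (19.8%), against 46.8% of all. Over all single-gene probe sets the median differences from Rh1 heads were -0.03, 0.08, -0.02 and 0.17 for IP replicates 1 to 4 after scaling. The background shares thus carry this shift and were not matched for signal. lost had 582, 85.6, 381 and 84.2 in IP, 1589.7, 1604, 1212 and 1403 in Rh1 heads and 848 to 1164 (median 961) in CS heads, and its differences of -2.60 and -2.06 became -1.55 and -1.01 without replicates 2 and 4. Lk6 had 591, 33.7, 97.9 and 82.9 in IP, 875, 762, 848 and 978 in Rh1 heads and 628 to 1064 (median 779) in CS heads. Replicate 1 lay just below the heads, and without replicates 2 and 4 its differences became -1.65 and -1.56. CG9691 had 787, 768, 1126 and 179.6 in IP, 2683, 3169, 2062 and 2567 in Rh1 heads and 3634 to 5207 (median 4159.8) in CS heads, and there replicate 4 alone was low. Its differences of -2.05 and -2.77 became -1.43 and -2.15. The part of RNA quality in these values was not tested.

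Whether the choice carries over to an array that did not make it was looked at by choosing without each array in turn and then reading the array left out. Without IP replicate 1 the rule gave 131 probe sets, 115 of them shared with the 121. On replicate 1 itself 86 of the 131 were at least 2 below both head groups, 115 at least 1 below, and 7 were not below, the highest at 1.61 above. On replicates 2, 3 and 4, each read with the probe sets chosen without it, 95, 94 and 81 were at least 2 below, which is 83.3%, 76.4% and 76.4% of those chosen, and all of those chosen were at least 1 below. With a head array left out, 115 to 122 were chosen and 85.2% to 98.3% of them were at least 2 above IP on that array. Choosing without IP replicates 2 and 4 together gave 117, of which 83 were at least 2 below both head groups in the mean of replicates 2 and 4. The readings of left-out IP arrays share the head arrays with the choice. Those of left-out head arrays share all IP arrays and the rest of their head group with it, so a high share was largely set in advance. All of these are counts, not a test.

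By gene order in the RefSeq assembly Release 6 no member gene lay next to, or next but 1 from, another member gene. All 119 genes matched that table by identifier and by symbol.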

How the data were processed

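The authors deposited a table of linear intensity values, 1 for each of 14010 probe sets (44 of them controls) on each array, with 4 zeros. How the authors computed these intensities (probe set algorithm, scaling target) is not given in the sources used here. Per the labels, targets for the arrays came from total RNA by the manufacturer's procedure. The IP labels used here end before any sample number, so IP replicates are numbered in accession order, which pairs nothing.

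Each array was scaled to the same 2% trimmed mean (310.2 to 373.4 before scaling), and 32 was added before log2. Genes were named from the platform's gene table, with 12442 of 13966 probe sets naming 1 gene. Probe sets at or above the 30th percentile of mean log2 value, 9776 in all and including all 121 members, were tested with limma 3.58.1 in R 4.3.3 (lmFit, eBayes with trend, two-sided), each comparison on its own arrays. In gene lists the brightest probe set stood for its gene. The fit was tested on simulated data. Python 3.11.15 with pandas 2.3.3, numpy 2.4.6 and matplotlib 3.10.9 made the tables and figures.

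The members and the gene lists were chosen with earlier results of these data known. The named genes are the members with the 12 lowest differences from Rh1 heads, the 8 lowest from CS heads, the 8 highest CS head signals, the 5 highest and 5 lowest differences between heads, the 5 largest IP spreads, the 5 probe sets on each side of the limit, up to 4 members of each gene list, and up to 6 genes with another probe set above -1. Other names are marked as chosen after seeing their values. Alternatives covered other pseudocounts, scalings, limits and filters, a fit of all arrays, leaving out arrays, and a replicate block. Promoter and protein sequences were not analysed here, and the arrays' genome build is not named, so that coordinates are left out. As nothing says that replicates were separate cultures or cohorts, p-values cover only the spread among these arrays, perhaps a technical one, and the small number of arrays limits precision.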

Additional observations from a re-analysis of the deposited data

Results flagged for a closer look

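In 201 groups of arrays of the members named by rule, 11 had 1 array far from the rest of its group, where chance alone would give about 1 in 20 groups. The count is close to that share, so no single case is read as a result. All 11 are listed here. Of these, 4 lay in CS heads. CS head replicate 4 was the lowest for Mlc2 with a signal of 13531 (the others 17144 to 19643), for Cpr100A with 2722 (4150.1 to 4979.9) and for blw with 12071 (13734 to 14555). For CG17108, CS head replicate 5 was the lowest at 17895 (19617 to 20558). In Rh1 heads, replicate 1 was the highest for CG6067 at 1380.3 (1232 to 1237) and the lowest for Obp56e at 6473 (7562 to 7758).

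The remaining 5 lay in IP. Replicate 4 was the lowest for Tsf1 at 1114 (2326 to 2554) and for Sod3 at 177 (292 to 314). Replicate 1 was the highest for Sh at 132 (44.2 to 50.8). Replicate 2 was the lowest for lncRNA:CR42862 at 103.7 (129 to 135), and replicate 3 was the highest for CG7781 at 149.6 (127 to 131). In each of these groups in IP the far array was still below every head array.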

How the results depend on the processing

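The rule gave 121 probe sets. With a limit of 1.5 it gave 281, and with 2.5 it gave 46, which follows from the limit itself. Other pseudocounts and scalings gave 91 to 135, and leaving out 1 array gave 106 to 131. Without IP replicates 2 and 4 it gave 117, of which 100 were shared. The named members' differences were below 0 under every setting run, with the highest at -0.94 for Ald1 without IP replicates 2 and 4, and 2606 of 2680 values moved by less than the spread between replicates.

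Called probe sets numbered 4630 in IP against Rh1 heads (3784 to 5372 with 1 array left out, 5470 without IP replicates 2 and 4), 5952 in IP against CS heads (5580 to 6534, and 6697) and 5293 between the head groups (4602 to 5351). One fit of all 14 arrays called 3013 between the head groups, and the cause was not tested. Without IP replicates 2 and 4 the falls against Rh1 heads among other genes of the lists went from 17 to 22 for detoxification and from 20 to 28 for the respiratory chain. Head samples share replicate numbers in the labels. The deviations of same-numbered head samples correlated at -0.08, -0.03, -0.08 and 0.06, and no sample correlated best with its own number. No pairing by number was seen, but so few arrays cannot exclude a shared day or batch. With the replicate block, run on head replicates 1 to 4 only, 4699 probe sets were called between the head groups. The 5293 calls above used all head arrays, so the counts do not show the effect of the block alone.

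Signals near the added 32, as in IP for Cyp4ac1, limit what can be said of size, and 4 immunoprecipitates with unequal 5′ to 3′ ratios limit precision.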
